A study of Mus musculus with 2 samples.

Results

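The LIM homeobox genes Lhx1, Lhx2, Lhx3, Lhx4, Lhx5, Lhx6, Lhx8, Lhx9, Isl1 and Isl2 were followed in the embryonic mouse hindbrain. They were chosen by symbol, as the Lhx and Isl genes, and all 10 were found among the 43346 annotated genes of the deposited tables. LIM homeobox genes code for transcription factors that join a pair of LIM domains, which bind partner proteins, to a homeodomain, which binds DNA. In the hindbrain and spinal cord they are switched on as neurons leave the cell cycle, and the combination a neuron carries marks its class, such as a motor neuron or one of the dorsal (dI) and ventral (V) interneuron classes. Many act in a complex with the adaptor Ldb1, and several come in paralogue pairs that are used by the same neurons.

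The study sequenced total RNA longer than 200 nucleotides from the hindbrain of B6NCrl embryos, an inbred strain, taken at 10.5 days of development with the sexes mixed. It has 1 group of 2 libraries: replicate 1 was a pool of 69 embryos and replicate 2 a pool of 51, and each library began with 10 ng of RNA to which synthetic spike-in RNAs were added. The labels number the pools as biological replicates but give both the same donor ID, so the spread between them is the spread between these pools of whole hindbrain. With 1 group there is no comparison of conditions and no test, and the results are levels and differences between the pools.

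The libraries held 38170119 and 36382264 reads in annotated genes after estimated counts were rounded, in the order replicate 1 and replicate 2, which is kept throughout. Of 8 hindbrain markers 7 had at least 1 TPM (a transcript level scaled for RNA length and library depth) in both pools, with summed levels of 224.7 and 175.09 TPM. Of 8 forebrain markers 3 did, with summed levels of 8.18 and 22.61 TPM. Markers of postmitotic neurons summed to 2161.23 TPM in replicate 1 and 1419.96 TPM in replicate 2. Hox markers of more posterior levels summed to 46.69 TPM in replicate 1 and 2.29 TPM in replicate 2 and so stood apart between the pools. The part of these differences in the results below was not tested.

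The 10 genes fall into 5 paralogue pairs by their homeobox, the 180 coding bases of the homeodomain. Identity over those bases was 83.3% for Isl1 and Isl2, 80.0% for Lhx1 and Lhx5, 79.4% for Lhx2 and Lhx9, 79.4% for Lhx3 and Lhx4, and 74.4% for Lhx6 and Lhx8, while the other 40 pairings lay between 50.6% and 70%. The last 60 bases, which code for the end of the homeodomain including the helix that contacts DNA, are shown to let the pairs be seen and to show how far apart the letters are that reads must tell apart. They were cut from GENCODE M21 transcripts (assembly mm10) and run 5′ to 3′ in the sense of the gene. Capitals mark the bases that differ from the paralogue partner, and the coordinates span an intron in 8 of the 10 genes (all but Isl1 and Isl2).
Lhx1 (chr11:84520408-84521708, minus strand): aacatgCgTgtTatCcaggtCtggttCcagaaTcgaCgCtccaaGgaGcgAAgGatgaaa
Lhx5 (chr5:120435611-120436349, plus strand): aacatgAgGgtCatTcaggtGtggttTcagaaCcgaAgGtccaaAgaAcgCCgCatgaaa
Lhx2 (chr2:38360086-38368883, plus strand): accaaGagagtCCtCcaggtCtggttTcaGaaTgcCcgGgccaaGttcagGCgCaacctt
Lhx9 (chr1:138831583-138832719, minus strand): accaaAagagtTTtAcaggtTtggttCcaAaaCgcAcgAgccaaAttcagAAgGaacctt
Lhx3 (chr2:26202221-26202367, minus strand): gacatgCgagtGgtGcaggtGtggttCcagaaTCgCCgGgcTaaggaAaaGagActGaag
Lhx4 (chr1:155704831-155705189, minus strand): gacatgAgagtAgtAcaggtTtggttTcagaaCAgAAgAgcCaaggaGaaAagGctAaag
Isl1 (chr13:116303091-116303150, minus strand): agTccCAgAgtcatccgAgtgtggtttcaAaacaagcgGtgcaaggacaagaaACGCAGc
Isl2 (chr9:55544255-55544314, plus strand): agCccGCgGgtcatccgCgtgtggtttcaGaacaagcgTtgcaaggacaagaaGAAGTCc
Lhx6 (chr2:36091095-36091337, minus strand): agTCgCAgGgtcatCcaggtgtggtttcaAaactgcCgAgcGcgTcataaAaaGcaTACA
Lhx8 (chr3:154311682-154316760, minus strand): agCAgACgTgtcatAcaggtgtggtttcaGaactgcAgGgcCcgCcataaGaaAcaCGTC
Most capitals stand at single positions spread along the stretch, and the partners of a pair share the letters between them. Reads of the members were nearly free of ambiguity at the gene level, as the deposited posterior SD of the count did not exceed 0.62 for any of the 10 genes.

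All 10 genes gave counts in both pools, and 9 of 10 reached 1 TPM in both, against 58.8% of 21474 annotated protein-coding genes. The exception was Lhx6. The 10 genes together came to 145.68 TPM in replicate 1 and 124.97 TPM in replicate 2. Ordered by mean TPM they were Isl1, Lhx5, Lhx2, Lhx1, Isl2, Lhx9, Lhx4, Lhx3, Lhx8 and Lhx6. For scale, protein-coding genes detected in both pools had a median of 19.1 TPM in replicate 1 and 20.0 TPM in replicate 2.

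Neighbours in this order were often not separated. In 5 of 9 neighbouring pairs the values of the pools overlapped, namely Lhx5 with Lhx2, Lhx2 with Lhx1, Lhx1 with Isl2, Isl2 with Lhx9, and Lhx4 with Lhx3. Isl1 stood above Lhx5 by very little, since its lower value was 28.05 TPM and the higher value of Lhx5 was 27.93 TPM. Lhx9 cleared Lhx4 by as little, with 9.18 TPM as its lower value against 9.16 TPM. Lhx3, Lhx8 and Lhx6 stood apart from each other at the low end. Isl1 ranked first and Lhx4, Lhx3, Lhx8 and Lhx6 ranked last in both pools, Lhx9 kept its place in the middle, and the ranks of Lhx5, Lhx2, Lhx1 and Isl2 changed places.

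**Figure D1:**
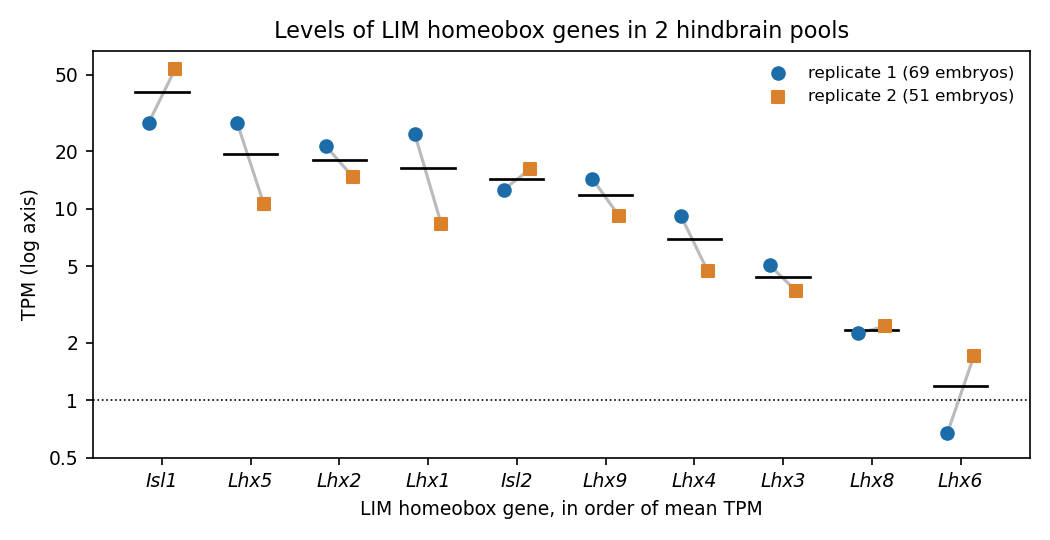
Level of each LIM homeobox gene in TPM (log axis) in replicate 1 (circles, 69 embryos) and replicate 2 (squares, 51 embryos), with the mean as a black bar and 1 TPM as a dotted line. The genes run in order of mean level, with Isl1 highest at 28.05 and 53.63 TPM and Lhx6 lowest at 0.67 and 1.70 TPM.

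The difference between the pools is given below as the log2 ratio of replicate 1 over replicate 2, in CPM (counts scaled to library size) with TMM factors, with a 95% interval that covers counting error only. A ratio says how 2 libraries differ, with no replicate of either. In this bulk RNA, fewer cells of a type and less RNA per cell cannot be told apart. On this scale 3 of the 10 genes (Lhx1, Lhx5 and Lhx4) were at least 2-fold higher in replicate 1, against 3.61% of 14385 genes with a CPM of at least 1 in both pools. Lhx6 alone was at least 2-fold higher in replicate 2, against 0.792% of those genes. The median ratio of the 10 genes was 0.66, beside 0.0010 over all genes tested, and 95.6% of all genes lay within 2-fold. A lean to replicate 1 was not particular to LIM homeobox genes. All 9 postmitotic neuron markers were higher there on the TMM scale, 4 of them at least 2-fold, with a median ratio of 0.87. Scaling to the spike-ins instead lowers all ratios, with the median of all genes at -0.82, and on that scale 0 of the 10 exceeded 2-fold towards replicate 1, 3 exceeded it towards replicate 2, and Lhx2, Lhx9 and Lhx3 changed sign. Statements on which pool was higher therefore hold relative to the bulk of genes, whereas the ratio of one LIM homeobox gene to another within a library does not depend on the scaling.

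**Figure D2:**
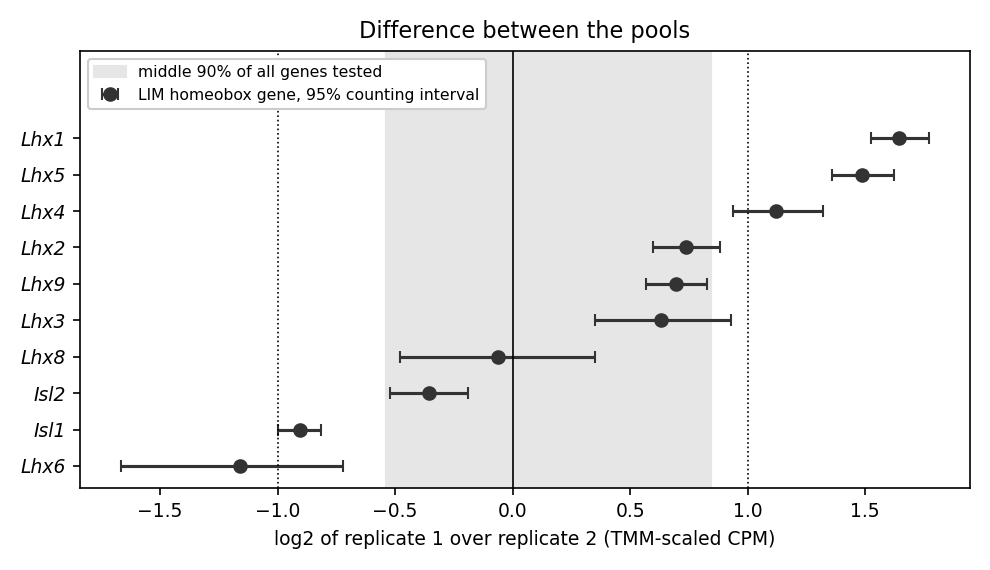
log2 ratio of replicate 1 over replicate 2 for each LIM homeobox gene, with bars for the 95% counting interval, a grey band for the middle 90% of all genes tested (from -0.54 to 0.85) and dotted lines at 2-fold. Lhx1, Lhx5 and Lhx4 lie to the right of the band and Isl1 and Lhx6 to the left; on the spike-in scale all points move left by about 0.82, which turns the sign of Lhx2, Lhx9 and Lhx3.

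Lhx1 and Lhx5 are the pair shared by dI2, dI4, V0 and V1 interneurons. Lhx1 (chromosome 11, 84518284 to 84525535, minus strand, mm10) had 24.52 TPM in replicate 1 and 8.27 TPM in replicate 2, from 2313 and 699 reads. Lhx5 (chromosome 5, 120431699 to 120441223, plus strand) had 27.93 TPM in replicate 1 and 10.52 TPM in replicate 2, from 1902 and 642 reads. Both were higher in replicate 1, on the spike-in scale too, where their ratios were 0.83 and 0.67. The TMM ratio was 1.65 for Lhx1 (interval 1.53 to 1.77, 3.13-fold) and 1.49 for Lhx5 (interval 1.36 to 1.62, 2.80-fold). Of the 14385 genes 0.779% had a ratio at least as high as that of Lhx1 and 1.20% one at least as high as that of Lhx5. The level of Lhx1 relative to Lhx5 was nearly kept, at 0.878 in replicate 1 and 0.786 in replicate 2. The mean was 16.4 ± 11.5 TPM for Lhx1 and 19.2 ± 12.3 TPM for Lhx5 (SD, n = 2).

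The RNAs beside both genes leaned the same way. Lhx1os, a long noncoding RNA transcribed away from Lhx1 on the opposite strand with its start 125 bases off, had 71.25 TPM in replicate 1 and 18.65 TPM in replicate 2, from 893 and 204 reads. Its ratio was 2.04 (interval 1.83 to 2.28, 4.12-fold), and per length it stood above Lhx1 itself, by 2.91 times in replicate 1 and 2.26 times in replicate 2. Gm27199, an antisense RNA that overlaps the first 69 bases of Lhx5, had 15.38 TPM in replicate 1 and 4.23 TPM in replicate 2, from 207 and 51 reads, with a ratio of 1.90 (interval 1.49 to 2.41). Aatf, the coding neighbour of Lhx1 on its own strand, had a ratio of -0.14. Whether reads were counted by strand is not given in the sources used here, so reads in the overlap of Gm27199 and Lhx5 cannot be told apart, while Lhx1os and Lhx1 do not overlap. Antisense RNAs at other members were rare: Gm27197 and Gm13584 in Lhx2 gave 5 and 1 reads in replicate 1 and 3 and 0 in replicate 2, Gm27196 at Lhx3 an estimated 5.49 and 8.44, Gm17226 in Isl2 4 and 6, and AI606473 beside Lhx8 26 and 21.

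The genes that mark the same neuron classes did not all follow this pair. Counts and medians of gene lists cover every listed gene, also those under a CPM of 1 in a pool, whose ratios rest on few reads. All 4 genes of the dI4 list were at least 2-fold higher in replicate 1, with a median ratio of 2.03. Gsx2 was under a CPM of 1 in a pool, and the median of the other 3 was 1.42. Ptf1a, which sets the inhibitory fate of these neurons, had 13.18 TPM in replicate 1 and 5.15 TPM in replicate 2. Lbx1, a dorsal interneuron determinant, had 7.07 TPM in replicate 1 and 1.18 TPM in replicate 2, and Gsx2, a progenitor factor, had 4.75 and 0.55 TPM. In contrast 1 of 4 dI2 genes was higher in replicate 1 and the list's median ratio was -0.19, with Olig3, a dorsal progenitor factor, at 80.16 and 69.81 TPM and Foxd3, a dI2 neuron factor, at 0.40 and 0.89 TPM. The 6 genes of the V0 and V1 list split evenly on the TMM scale, 3 higher in each pool, and the 5 with a CPM of at least 1 in both split into 2 higher in replicate 1 and 3 in replicate 2. Among them Dbx1, which marks V0 progenitors, had 33.58 TPM in replicate 1 and 60.81 TPM in replicate 2, En1, the V1 marker, had 2.81 and 3.19 TPM, and Evx1, a V0 neuron factor, had 3.46 and 1.93 TPM. Evx2, its neighbour in the genome, was the lowest, with 0.38 and 0.16 TPM, and Pax2, which dI4 and V1 neurons share, had the ratio farthest towards replicate 1, at 1.36. Lhx1 and Lhx5 thus leaned the way of the dI4 genes. In the V0 and V1 list Evx1, Evx2 and Pax2 leaned that way too, with Evx1 at 1.05 and Evx2 at 1.22. Dbx1, Dbx2 and En1 leaned the other way, at -0.78, -0.42 and -0.10. On the spike-in scale the dI4 genes also stayed higher in replicate 1, since their ratios all exceeded the shift of 0.82.

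Lhx2 and Lhx9 mark the dI1 neurons, which arise from the Atoh1 progenitors of the dorsal edge of the hindbrain, the rhombic lip. Lhx2 (chromosome 2, 38339281 to 38369733, plus strand) had 21.16 TPM in replicate 1 and 14.69 TPM in replicate 2, from 1102 and 625 reads. Lhx9 (chromosome 1, 138825186 to 138848577, minus strand) had 14.34 TPM in replicate 1 and 9.18 TPM in replicate 2, from 1334 and 779 reads. Relative to the bulk of genes both were higher in replicate 1, with ratios of 0.74 for Lhx2 (interval 0.60 to 0.88) and 0.70 for Lhx9 (interval 0.57 to 0.83), but on the spike-in scale they were -0.080 and -0.12. Ratios at least as high as that of Lhx2 were found in 6.46% of genes. The mean was 17.9 ± 4.57 TPM for Lhx2 and 11.8 ± 3.65 TPM for Lhx9 (SD, n = 2). Lhx2 stood above Lhx9 in both pools, by 1.48 times in replicate 1 and 1.60 times in replicate 2.

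Of the 5 genes in the dI1 list, 4 were higher in replicate 1 on the TMM scale and 1 was at least 2-fold higher there. Atoh1, the progenitor factor of this class, had 28.09 TPM in replicate 1 and 28.11 TPM in replicate 2. Barhl1, which follows Atoh1 in the same lineage, had 14.69 TPM in replicate 1 and 9.10 TPM in replicate 2, a ratio of 0.93. Pou4f1, which is shared with sensory neurons, was the highest of the list in replicate 2, with 21.26 and 34.36 TPM. Its relative Pou4f2 was the lowest, with 1.39 and 0.50 TPM, a ratio of 1.50. The pair that labels the postmitotic cells of this class and Barhl1 thus differed between the pools in the same direction on the TMM scale, while Atoh1 had nearly the same TPM in both.

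Isl1 and Isl2 mark motor neurons, and Isl1 is also a marker of dI3 interneurons, cranial sensory ganglia and heart progenitors. Isl1 (chromosome 13, 116298281 to 116309689, minus strand) had 28.05 TPM in replicate 1 and 53.63 TPM in replicate 2, from 1479 and 2626 reads. Isl2 (chromosome 9, 55538672 to 55546180, plus strand) had 12.55 TPM in replicate 1 and 16.11 TPM in replicate 2, from 549 and 665 reads. Both were lower in replicate 1, on the spike-in scale as well. The ratio was -0.91 for Isl1 (interval -0.999 to -0.814) and -0.35 for Isl2 (interval -0.52 to -0.19). A ratio at least as low as that of Isl1 was found in 1.15% of genes, with Isl1 1.87-fold higher in replicate 2 and so short of 2-fold. The mean was 40.8 ± 18.1 TPM for Isl1 and 14.3 ± 2.52 TPM for Isl2 (SD, n = 2).

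Isl1 and Lhx1 thus differed between the pools in opposite directions. Per length, Isl1 stood at 1.14 times the level of Lhx1 in replicate 1 and 6.48 times in replicate 2. Isl1 made up 19.3% of the summed TPM of the 10 genes in replicate 1 and 42.9% in replicate 2. Isl1 to Isl2 was 2.24 in replicate 1 and 3.33 in replicate 2, so the balance within the Isl pair shifted less than that between Isl1 and Lhx1.

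Genes of the neuron classes that carry Isl1 were mostly higher in replicate 1 on the TMM scale, the opposite of Isl1. All 3 dI3 genes were higher there, 2 of them at least 2-fold. Tlx3, the selector of this class, had 14.32 TPM in replicate 1 and 10.04 TPM in replicate 2. Among 9 cranial motor neuron genes, 8 were higher in replicate 1 on the TMM scale and 3 at least 2-fold, and of the 7 with a CPM of at least 1 in both 6 were higher there, 2 at least 2-fold. Slc18a3, the vesicular acetylcholine transporter, had 9.58 TPM in replicate 1 and 2.37 TPM in replicate 2, a ratio of 2.08; it lies inside the Chat gene, so the division of reads between these genes is uncertain. Tbx2, a T-box factor, was the 1 gene of the list that was lower in replicate 1, with 1.23 and 2.60 TPM. Mnx1, a marker of somatic motor neurons, gave 7 reads in replicate 1 and 3 in replicate 2 and is close to the floor of what these libraries detect. Slit3, a guidance cue, was the highest of the list, with 43.16 and 31.94 TPM, and Chat, which makes acetylcholine, had the farthest ratio at 2.32, from 45 and 7 reads. On the spike-in scale the directions of Tlx3 and Slit3 turn round, as their TMM ratios lie under the shift of 0.82.

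The sensory ganglia and the heart, outside the neural tube, also express Isl1. Of 11 sensory ganglion and placode markers, 7 were higher in replicate 2, 3 of them at least 2-fold, and 3 (Ntrk2, Avil and Prrxl1) were at least 2-fold higher in replicate 1. Prrxl1 and Pou4f1 also stand in the dI3 and dI1 lists. The list summed to 142.42 TPM in replicate 1 and 214.61 TPM in replicate 2, and its median ratio was -0.55. Prdm12, a factor of pain-sensing neurons, had 3.04 TPM in replicate 1 and 6.79 TPM in replicate 2, and Eya1, a placode factor, had 14.58 and 32.76 TPM. Of 8 heart and pharyngeal mesoderm markers, 7 were higher in replicate 2, and they summed to 20.66 TPM in replicate 1 and 43.7 TPM in replicate 2. This count rests on low genes, as 2 of the 8 had a CPM of at least 1 in both pools and 1 of these was higher in each pool. The exception, Tbx1, a pharyngeal mesoderm factor, had 12.26 TPM in replicate 1 and 9.93 TPM in replicate 2, and Nkx2-5, a defining cardiac factor, gave 0 and 5 reads. No marker of the ganglion list was at 0 in either pool. Their part in the level of Isl1 was not tested.

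**Figure D3:**
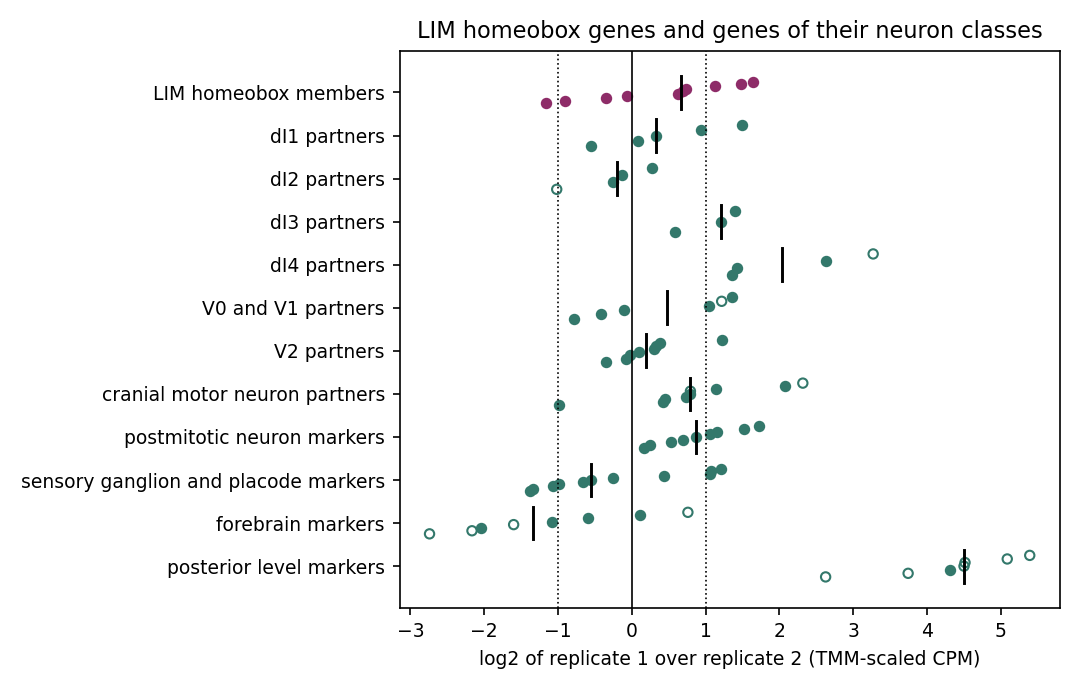
log2 ratio of replicate 1 over replicate 2 (TMM-scaled CPM) for the LIM homeobox genes, for lists of genes that mark their neuron classes and for tissue marker lists, with 1 point per gene, open where the gene was under a CPM of 1 in a pool, black bars for list medians and dotted lines at 2-fold. The dI4 genes lie beyond 2-fold on the replicate 1 side, the LIM homeobox genes spread over both sides, and the sensory ganglion markers have a median of -0.55; on the spike-in scale all points move left by about 0.82.

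Lhx3 and Lhx4 mark V2a interneurons and, for a time, somatic motor neurons, and they act in the pituitary as well. Lhx3 (chromosome 2, 26200212 to 26208289, minus strand) had 5.06 TPM in replicate 1 and 3.71 TPM in replicate 2, from an estimated 265.68 and 161.61 reads. Lhx4 (chromosome 1, 155698031 to 155751684, minus strand) had 9.16 TPM in replicate 1 and 4.73 TPM in replicate 2, from 740 and 321 reads. Relative to the bulk of genes both were higher in replicate 1, with ratios of 0.63 for Lhx3 (interval 0.35 to 0.93) and 1.12 for Lhx4 (interval 0.94 to 1.32, 2.18-fold), but on the spike-in scale Lhx3 was at -0.18 and Lhx4 at 0.31. The call of 2-fold for Lhx4 also falls away when deposited TPM is compared, where TPM plus 1 gives a ratio of 0.83. The mean was 4.385 ± 0.955 TPM for Lhx3 and 6.945 ± 3.13 TPM for Lhx4 (SD, n = 2). Lhx4 stood above Lhx3 within each pool, with Lhx3 at 0.552 times Lhx4 in replicate 1 and 0.784 times in replicate 2.

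The V2 genes had nearly the same summed level in both pools. Of the 8 genes in the list 5 were higher in replicate 1 on the TMM scale, 1 at least 2-fold, and the list summed to 40.94 TPM in replicate 1 and 40.83 TPM in replicate 2. Gata3, the V2b marker, was the highest of the list, with 11.37 TPM in replicate 1 and 14.19 TPM in replicate 2, and Vsx1, a homeobox factor, was the lowest, with 0.81 and 0.87 TPM. Sox14, a V2 neuron factor, was farthest towards replicate 1, with 2.63 and 1.20 TPM. Of 7 pituitary and oral ectoderm markers 1 reached 1 TPM in both pools, and they summed to 18.35 TPM in replicate 1 and 8.49 TPM in replicate 2. Pou1f1, a factor that defines cells of the later gland, was at 0 in both, which allows up to 3 reads. What non-neural tissue adds to Lhx3 and Lhx4 was not tested.

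Lhx6 and Lhx8 are known mainly from the ventral forebrain, where they mark inhibitory and cholinergic neurons, and from the mesenchyme of the pharyngeal arches. They were the lowest of the 10. Lhx8 (chromosome 3, 154306294 to 154330659, minus strand) had 2.24 TPM in replicate 1 and 2.43 TPM in replicate 2, from 101 and 100 reads. Lhx6 (chromosome 2, 36081953 to 36105408, minus strand) had 0.67 TPM in replicate 1 and 1.70 TPM in replicate 2, from an estimated 57.38 and 123 reads. Lhx8 differed little between the pools and its interval was the only one of the 10 that includes 0 (ratio -0.063, interval -0.48 to 0.35), although the spike-in scale puts it at -0.87. Lhx6 was 2.23-fold higher in replicate 2 (ratio -1.16, interval -1.67 to -0.72), and 0.507% of genes had a ratio at least as low. The mean was 2.335 ± 0.134 TPM for Lhx8 and 1.185 ± 0.728 TPM for Lhx6 (SD, n = 2). With TPM plus 1 Lhx6 no longer reaches 2-fold. Lhx6 relative to Lhx8 was 0.299 in replicate 1 and 0.700 in replicate 2.

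Some markers of both tissues known for this pair were detected, 3 of 8 for the forebrain and 7 of 10 for the arch mesenchyme. The 8 forebrain markers were higher in replicate 2 in 6 cases, 5 of them at least 2-fold, with a median ratio of -1.34. Of the 4 with a CPM of at least 1 in both pools 3 were higher in replicate 2, 2 of them at least 2-fold, with a median of -0.83. Dlx5, a homeobox factor that stands in the forebrain and the arch list, supplied 2.74 TPM of the forebrain sum in replicate 1 and 12.21 TPM in replicate 2. Nkx2-1, also on the forebrain list, had 2.89 TPM in replicate 1 and 2.74 TPM in replicate 2, a ratio of 0.11. The 10 pharyngeal arch mesenchyme markers summed to 88.35 TPM in replicate 1 and 103.77 TPM in replicate 2, with 6 of 10 higher in replicate 2 and a median ratio of -0.21. Among the 7 of these with a CPM of at least 1 in both pools the direction turned, with 4 higher in replicate 1, 3 higher in replicate 2 and a median of 0.078. The part of either tissue in the levels of Lhx6 and Lhx8 was not tested.

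The partners with which LIM homeodomain proteins work were all detected. In the list of 10 LIM complex genes all exceeded 1 TPM in both pools and 0 of 10 differed by 2-fold on the TMM scale. Ldb1, the adaptor that bridges LIM domains, had 91.54 TPM in replicate 1 and 77.58 TPM in replicate 2. Ssbp3, which stabilises Ldb1, was the highest of the list, with 143.26 and 117.91 TPM. Lmo1, which competes for Ldb1 and has no homeodomain, had 23.33 and 16.98 TPM, and Rlim, an enzyme that marks Ldb1 for breakdown, had 21.99 and 31.20 TPM. Lmo3, a relative of Lmo1, was the lowest, with 6.85 and 9.63 TPM. Lmo1 and Rlim had the ratios farthest apart, at 0.54 and -0.48. The list's median ratio was 0.23. Ldb1 alone thus exceeded the level of every single LIM homeobox gene in both pools.

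Lmx1a and Lmx1b, LIM homeobox genes outside the Lhx and Isl names, stood apart from each other. Lmx1a, a marker of the roof plate, had 9.22 TPM in replicate 1 and 14.26 TPM in replicate 2, a ratio of -0.55. Lmx1b, which also marks dorsal and serotonergic neurons, had 6.18 and 2.13 TPM, a ratio of 1.58. Lmx1b was therefore about as far towards replicate 1 as Lhx1 and Lhx5.

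Genes with the most similar pair of levels were sought by distance in log2(TPM + 0.1) over the 2 pools, which is a likeness over 2 values only. Lhx1 had no other protein-coding gene within 0.1, and the nearest were Epha3, an ephrin receptor, at 0.106 and Dynlrb2 at 0.109. Lhx5 had 1 gene within 0.1, Rusc2, at 0.0854, followed by Csdc2 at 0.122. Isl1 had 2 within 0.1, Atad2 at 0.0755 and Fndc3c1 at 0.0875. For Lhx9 the nearest were Sall1, a zinc finger factor, at 0.0330 and Barhl1 at 0.0367, out of 12 genes within 0.1. The 2 nearest were Runx1t1 and Elmo1 for Lhx2 and Gp1bb and Rbfox3 for Lhx4, out of 11 genes within 0.1 for each. They were Fbxl19 and Tmem158 for Lhx3, Anpep and Barx1 for Lhx8, and Lyplal1 and Cep41 for Isl2. Lhx3 had 22 genes within 0.1, Lhx8 25 and Isl2 70, so for these the likeness singles out no gene.

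Transcript estimates divided the genes into those with 1 form and those with several. Lhx5 has a single annotated transcript, and for Lhx1 the largest, Lhx1-201, held 90.7% of the gene's TPM in replicate 1 and 90.6% in replicate 2. Isl1-201 took 66.0% and 70.5%, Lhx2-201 55.5% and 50.2%, and Lhx8-201 65.2% and 85.2%. Isl2-201 took 71.6% and 88.2%, with most of the rest in Isl2-202, annotated as a target of nonsense-mediated decay, at 23.3% and 10.2%. Lhx4 was divided between Lhx4-202, at 52.9% and 57.1%, and Lhx4-201, at 47.1% and 42.9%. In Lhx3 the largest form in replicate 1 was Lhx3-203, annotated as a retained intron, with 53.8% of TPM in replicate 1 and 28.8% in replicate 2. Lhx3-202 had the largest change, with 4.14% in replicate 1 and 31.5% in replicate 2, yet its TPM of 0.21 and 1.17 had deposited intervals that overlap.

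The homeobox is not part of every transcript. For Lhx1, Lhx4 and Lhx5 all of the TPM lay in isoforms with the whole homeobox in both pools, and for Isl1 98.4% did in each. Lhx2 had 68.8% in replicate 1 and 57.9% in replicate 2, with 24.8% and 36.2% in Lhx2-202, a short transcript with no homeobox. Lhx3 had 97.0% and 86.0%, but much of this was the retained-intron form Lhx3-203, and its coding isoforms with the homeobox summed to 2.19 of 5.06 TPM in replicate 1 and 2.12 of 3.71 TPM in replicate 2. Counted over isoforms of every type, Lhx9 had the smallest share in both pools, 46.7% in replicate 1 and 56.4% in replicate 2. The share of Lhx8, 65.2% in replicate 1 and 85.2% in replicate 2, is a minimum, because 4 of its deposited transcripts have no sequence in M21 and were counted as without.

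**Figure D4:**
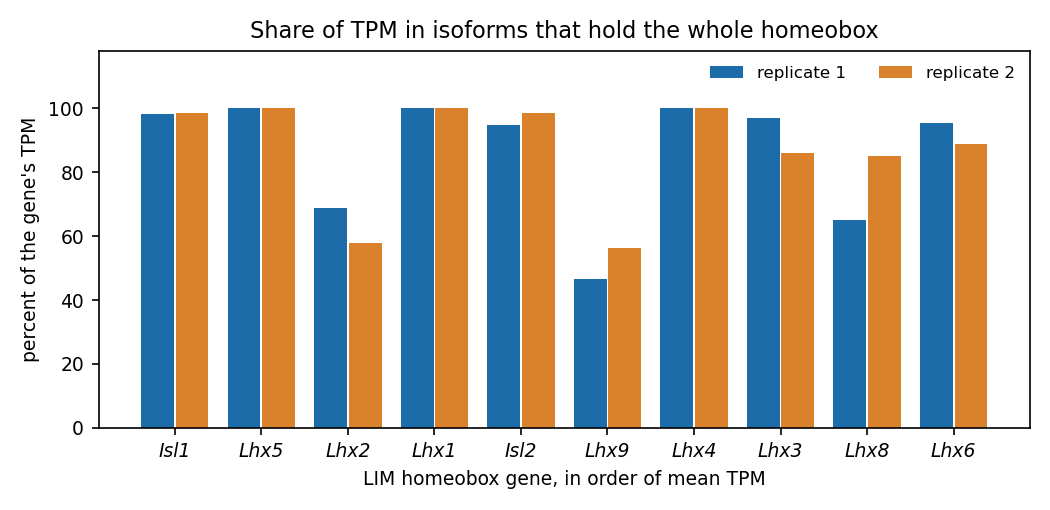
Percent of each gene's TPM in annotated isoforms, coding or not, that hold the whole homeobox, in replicate 1 (left bars) and replicate 2 (right bars). The bars are at 100% for Lhx1, Lhx4 and Lhx5 and lowest for Lhx9, at 46.7% and 56.4%, and those of Lhx8 are minimums.

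In Lhx9 the missing share lies mostly in isoforms that leave the homeobox before its end. Lhx9-201 and 2 further isoforms hold only the first 139 of the 180 bases and go on in another exon, and the same 60-base stretch is shown for Lhx9-201 and for Lhx9-202, which holds the whole homeobox, with capitals for the bases that are not homeobox.
Lhx9-201 (chr1:138828669-138832719, minus strand): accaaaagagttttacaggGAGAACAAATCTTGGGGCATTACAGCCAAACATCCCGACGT
Lhx9-202 (chr1:138831583-138832719, minus strand): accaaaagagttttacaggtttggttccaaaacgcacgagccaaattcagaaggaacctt
The capitals take the place of bases that code for the later part of the helix that contacts DNA. The isoforms that stop short summed to 5.49 TPM in replicate 1 and 3.23 TPM in replicate 2, which is 38.3% and 35.2% of the gene. Isoforms with the whole homeobox summed to 6.69 TPM in replicate 1 and 5.18 TPM in replicate 2. Lhx9-201 alone was estimated at 5.49 and 3.11 TPM, above the upper bounds of its own deposited intervals (5.42 and 3.06 TPM). Its share by posterior mean was lower, 27.5% in replicate 1 and 22.7% in replicate 2, so its level is less firm than that of the gene.

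Promoter windows of 250 bases before the annotated start were available for 9 of the 10 genes (13 windows, from RefSeq on GRCm38.p6). The windows of Lhx1 and Isl1 are shown because Lhx1 had the most reads of the 10 genes in replicate 1 and Isl1 in replicate 2. Capitals mark the matches, on either strand, to TAATTA (a core that many homeodomains bind), CCAAT (the binding motif of NF-Y), GGGCGG (a GC box of Sp factors), TATAAA (the TATA box) and TGACGTC (most of the cyclic AMP response element). The last of these was chosen after the windows had been read.
Lhx1 (chr11:84525535-84525784, minus strand): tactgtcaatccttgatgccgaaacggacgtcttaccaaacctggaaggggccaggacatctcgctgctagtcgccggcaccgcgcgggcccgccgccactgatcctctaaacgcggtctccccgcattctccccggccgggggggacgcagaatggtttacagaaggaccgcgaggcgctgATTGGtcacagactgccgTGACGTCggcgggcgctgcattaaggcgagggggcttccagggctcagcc
Isl1 (chr13:116309689-116309938, minus strand): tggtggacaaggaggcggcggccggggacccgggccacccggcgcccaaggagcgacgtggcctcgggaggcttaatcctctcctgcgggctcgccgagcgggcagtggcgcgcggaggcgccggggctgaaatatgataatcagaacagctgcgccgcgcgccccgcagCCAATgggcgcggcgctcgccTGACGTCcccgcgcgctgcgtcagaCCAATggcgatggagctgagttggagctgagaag
Both windows are rich in G and C, at 64.8% for Lhx1 and 71.2% for Isl1, against a median of 52.4% over all 32851 mouse windows, and 11 of the 13 windows lay above that median. They hold 26 and 33 CG dinucleotides, against a median of 6. TGACGTC was found in 4 genes (Lhx1, Lhx4, Isl1 and Isl2), so in genes that leaned to either pool, and in 2.78% of all windows. CCAAT was found in 5 genes and in 33.8% of all windows. TAATTA was found in none of the 9 genes and in 4.84% of all windows. The windows of Lhx1 and Lhx1os overlap, as the starts lie 125 bases apart on opposite strands. GGGCGG and TATAAA, found in 32.7% and 12.4% of all windows, have no match in the windows shown, where no match overlaps another. A match is a run of letters and was not measured as a binding site here.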

How the data were processed

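Total RNA-seq of 2 pools of mouse hindbrain was analysed from the deposited gene and transcript tables of each library. Per the file headers these hold an expected count (an estimate that divides reads which fit more than 1 feature), TPM with its posterior mean, and FPKM. Per the file headers the transcript tables add the percent of a gene in each isoform, and the isoform percentages here were recalculated from TPM. The posterior SD and the interval bounds are deposited scores, with no level stated. The deposited file notes name assembly mm10 and annotation M4. Which aligner and quantifier ran is not given in the sources used here. Spike-in RNAs made up 13.0% of replicate 1 TPM and 7.82% of replicate 2 TPM.

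Symbols and coordinates came from GENCODE M21 on the same assembly, and 42462 of 43346 gene rows (98.0%) matched. The 26248 rows of predicted tRNAs and 97 of spike-ins stayed out of library sizes. Expected counts were rounded for ratios, which used TMM factors from edgeR 4.0.16 (R 4.3.3) and a prior count of 2. The counts over all genes used those with a CPM of at least 1 in both libraries, whereas the counts and medians of gene lists include genes under it. Intervals are exact conditional (Clopper-Pearson) at 95%, and cover counting error alone, as reads are not independent molecules. Called means at least 2-fold, and detected means at least 1 TPM in both. Nearest genes used a pseudocount of 0.1. Motifs were searched on both strands. The ratios were tested on simulated data, and the intervals were not. Other steps used pandas 2.3.3, numpy 2.4.6 and scipy 1.17.1 in Python 3.11.15, figures matplotlib 3.10.9, and DESeq2 1.42.0 gave alternative size factors.

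The members, gene lists and marker lists were chosen with earlier results of these data known. Of each list the text names the highest and lowest by mean TPM, the farthest ratio each way and the gene a class is best known for, and of each detected member the 2 nearest genes, the genes that overlap it and the largest isoform. Some further list members were named after their values were seen. Results for some list members are not reported here.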

Additional observations from a re-analysis of the deposited data

How the results depend on the processing

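With spike-in scaling the median ratio of all genes was -0.82, and 0 members exceeded 2-fold towards replicate 1 and 3 towards replicate 2, and 3 members (Lhx2, Lhx9 and Lhx3) then had the opposite sign. With deposited TPM plus 1 the count for replicate 2 was 0. Deposited or posterior mean TPM left 2 members at least 2-fold higher in replicate 1, without Lhx4; the cause was not tested. Over 10 alternatives for the ratios, 100 member ratios were recomputed. Of these, 83 moved by no more than the distance from the middle of their counting interval to its end. The other 17 moved by more, 10 of them under spike-in scaling. The number of members detected ranged from 9 to 10 without replicate 1 or without replicate 2, and reached 10 at a limit of 0.5 TPM. In the order of levels 6 of 10 ranks were kept without either replicate, and the largest isoform was the same in 8 to 9 members. Low counts of Lhx6 and Lhx8 widen their intervals most. No paired analysis was possible because there is 1 group.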
